A study of Mus musculus with 12 samples.

Results

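Noncanonical imprinted genes are a small set of mouse genes whose maternal copy is silenced in the early embryo through histone H3 trimethylated at lysine 27 (H3K27me3) laid down in the oocyte. The 10 genes described here were Gab1, Sfmbt2, Slc38a4, Smoc1, Jade1, Clic6, Slc38a1, Otx2, Bbx and Runx1. They were chosen by name, and each matched 1 gene model of 55385 in a table of PRC2 libraries and 1 of 55401 in a table of PRC1 libraries. RNA-seq had been made from 12 libraries of mouse ovarian oocytes, 2 for each of 6 groups, at postnatal day 6 for non-growing and postnatal day 7 for growing oocytes. In the PRC2 table, conditional knockout (cKO) oocytes of the genotype EedF/-; Ddx4-Cre were set against control oocytes of the genotype EedF/+; Ddx4-Cre, at both stages. In the PRC1 table, growing oocytes labelled Ring1-/-; Ring1F/-; Ddx4-Cre (PRC1 cKO) were set against growing oocytes labelled Ring1-/-; Rnf2F/+; Ddx4-Cre (PRC1 control). All 6 groups carry Ddx4-Cre, a Cre recombinase driven by a germ-cell gene, and both PRC1 genotypes lack Ring1. The PRC1 cKO label names Ring1 for the floxed allele, where the control label names Rnf2, and the groups are called here as labelled.

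Polycomb repressive complex 2 (PRC2), of which Eed is a core subunit, places H3K27me3. Polycomb repressive complex 1 (PRC1), whose ubiquitin ligase subunit is Ring1 or its paralog Rnf2, marks histone H2A with ubiquitin. In the oocyte H3K27me3 covers broad domains, and at noncanonical imprinted genes the mark passes to the embryo on the maternal copy. The paternal copy alone is then transcribed in the early embryo and, for only some of these genes, later in the placenta. The RNA values below are levels in the oocyte, before fertilization brings in a paternal copy, and do not measure imprinting.

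The genes have varied roles. Slc38a1 and Slc38a4 encode sodium-coupled transporters of neutral amino acids, and Clic6 encodes a member of the chloride intracellular channel family. Gab1 encodes a docking protein of receptor tyrosine kinase signalling, and Smoc1 a secreted calcium-binding matrix protein. Sfmbt2 encodes a Polycomb-group protein with MBT domains that is needed in the placenta, and Jade1 a scaffold of a histone acetyltransferase complex. Bbx encodes an HMG-box protein, Runx1 a runt-domain factor of blood formation, and Otx2 a homeodomain factor of the epiblast and forebrain.

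All 10 are annotated as protein-coding. On GRCm38, Slc38a1 lies on chromosome 15 from 96571418 to 96642913 and Slc38a4 from 96994820 to 97055956, both on the minus strand. Clic6 lies on chromosome 16 from 92485736 to 92541243 on the plus strand, and Runx1 follows it from 92601466 to 92826149 on the minus strand, 60223 bases away with no protein-coding gene between them. Bbx is farther off on chromosome 16, from 50191844 to 50432390, on the minus strand. The other genes lie alone among the 10. Gab1 is on chromosome 8 from 80764438 to 80880519 (minus strand), Sfmbt2 on chromosome 2 from 10370510 to 10595253 (plus), and Smoc1 on chromosome 12 from 81026808 to 81186414 (plus). Jade1 is on chromosome 3 from 41555731 to 41616864 (plus) and Otx2 on chromosome 14 from 48657677 to 48673819 (minus).

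RefSeq promoter windows on GRCm38.p6, each running from 250 bases before to 50 bases after an annotated start, were matched for 6 of the 10 genes (Gab1, Sfmbt2, Slc38a4, Jade1, Otx2 and Runx1), and Smoc1, Clic6, Slc38a1 and Bbx had none. They differed widely in their content of CG, the dinucleotide that carries DNA methylation, whose letters read the same on both strands. The member windows held between 2 and 38 CG, against a median of 7 over all 32841 windows, of which 94.6% held at least 1. The distal start of Runx1 held 2 and its proximal start 35, the 3 starts of Slc38a4 held 5 each, and the start of Gab1 that matches the gene model held 26. A window of Slc38a4, both of these Runx1 windows and that of Gab1 are printed to show this range. All 4 are on the minus strand, read 5′ to 3′, with each CG in capitals.
Slc38a4, chr15:97055907-97056206: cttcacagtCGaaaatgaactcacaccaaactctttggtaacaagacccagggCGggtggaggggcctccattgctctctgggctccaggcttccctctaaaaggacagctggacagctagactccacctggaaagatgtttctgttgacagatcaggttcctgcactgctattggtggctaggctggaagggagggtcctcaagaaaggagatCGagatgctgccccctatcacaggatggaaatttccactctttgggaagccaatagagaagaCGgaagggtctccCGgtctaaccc
Runx1 distal start, chr16:92826025-92826324: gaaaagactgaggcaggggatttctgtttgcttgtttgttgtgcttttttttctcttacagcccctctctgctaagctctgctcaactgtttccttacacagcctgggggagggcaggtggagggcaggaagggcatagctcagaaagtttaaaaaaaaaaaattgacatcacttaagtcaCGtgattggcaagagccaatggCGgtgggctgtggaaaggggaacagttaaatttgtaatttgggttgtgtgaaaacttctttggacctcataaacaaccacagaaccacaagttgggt
Runx1 proximal start, chr16:92697280-92697579: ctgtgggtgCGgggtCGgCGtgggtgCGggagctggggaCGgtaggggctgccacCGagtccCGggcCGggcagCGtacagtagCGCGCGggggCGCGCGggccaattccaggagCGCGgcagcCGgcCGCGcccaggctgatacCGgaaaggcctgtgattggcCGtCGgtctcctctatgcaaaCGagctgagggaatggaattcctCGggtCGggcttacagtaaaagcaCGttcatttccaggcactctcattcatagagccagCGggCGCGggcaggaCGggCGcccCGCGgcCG
Gab1, chr8:80880470-80880769: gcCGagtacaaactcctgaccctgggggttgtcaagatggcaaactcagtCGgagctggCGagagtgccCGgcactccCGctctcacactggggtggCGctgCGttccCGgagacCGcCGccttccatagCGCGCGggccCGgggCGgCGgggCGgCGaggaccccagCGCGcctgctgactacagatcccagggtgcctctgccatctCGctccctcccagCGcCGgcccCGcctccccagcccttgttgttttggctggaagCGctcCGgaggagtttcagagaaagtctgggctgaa

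Values are TPM, transcript abundances that sum to a fixed total in every library and keep no record of depth, so the depth is unknown and no counting interval can be given. Nothing in the labels ties libraries to different animals, so the p-values reflect the spread between libraries alone. Changes were fitted with limma on log2(TPM + 1), a scale that understates the change of genes near 0, for genes that reached 1 TPM in at least 2 libraries of a table. A gene is called where its Benjamini-Hochberg adjusted p is at most 0.05. Of the 10, 6 were tested in the PRC2 table (Bbx, Slc38a1, Jade1, Gab1, Smoc1 and Sfmbt2) and 9 in the PRC1 table, all but Otx2. As a check of the labels, Eed stood at 12.1 and 10.3 TPM in non-growing PRC2 cKO oocytes, against 88.8 and 90.5 TPM in controls, and at 9.64 and 10.1 TPM in growing PRC2 cKO oocytes, against 62.3 and 60.4 TPM in controls. Rnf2 had values of 87.8 and 61.4 TPM in both libraries labelled PRC1 cKO, against 59.2 and 53.8 TPM in PRC1 controls, with no call (limma adjusted p = 0.197) and a sign that depended on the scaling. A value over the whole gene does not show whether floxed exons were removed. Ring1 was at 0.01 and 0.02 TPM in PRC1 cKO oocytes and was listed at 0 in both PRC1 controls. The 10 oocyte marker genes summed to 5533 to 18552 TPM over the 12 libraries, with none at 0 in any.

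Most of the genes were higher in the libraries labelled PRC1 cKO than in PRC1 controls, and Clic6 moved most. Of the 9 tested, 8 were called higher and none lower, where 41.3% of all 14941 genes tested were called higher and 6.45% lower. That count cannot be read as support, because Clic6, Slc38a4, Runx1, Sfmbt2 and Smoc1 reached 1 TPM in fewer than 2 control libraries and so passed the filter only through the cKO. The same holds for the adjusted p-values and ranks given below for these genes. In 9 of the 10 genes both cKO libraries were above both controls, as were 50.8% of all 32244 models above 0 in these libraries. The median log2 change of all genes tested was itself 0.55. It was 0.38 with nuclear protein-coding genes set to one total, -0.07 with trimmed-mean scaling and -0.04 with quantile normalization. The calls over all genes, 6176 higher and 964 lower, became 3169 higher and 3482 lower with trimmed-mean scaling, and 2722 higher and 2636 lower with quantile normalization. Their sum of 7140 became 3747 without PRC1 control replicate 1 and 4291 without PRC1 cKO replicate 1. Changes are therefore given below also relative to the median of 0.55. Fewer cells of a type and less RNA per cell cannot be told apart in such bulk libraries.

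**Figure D1:**
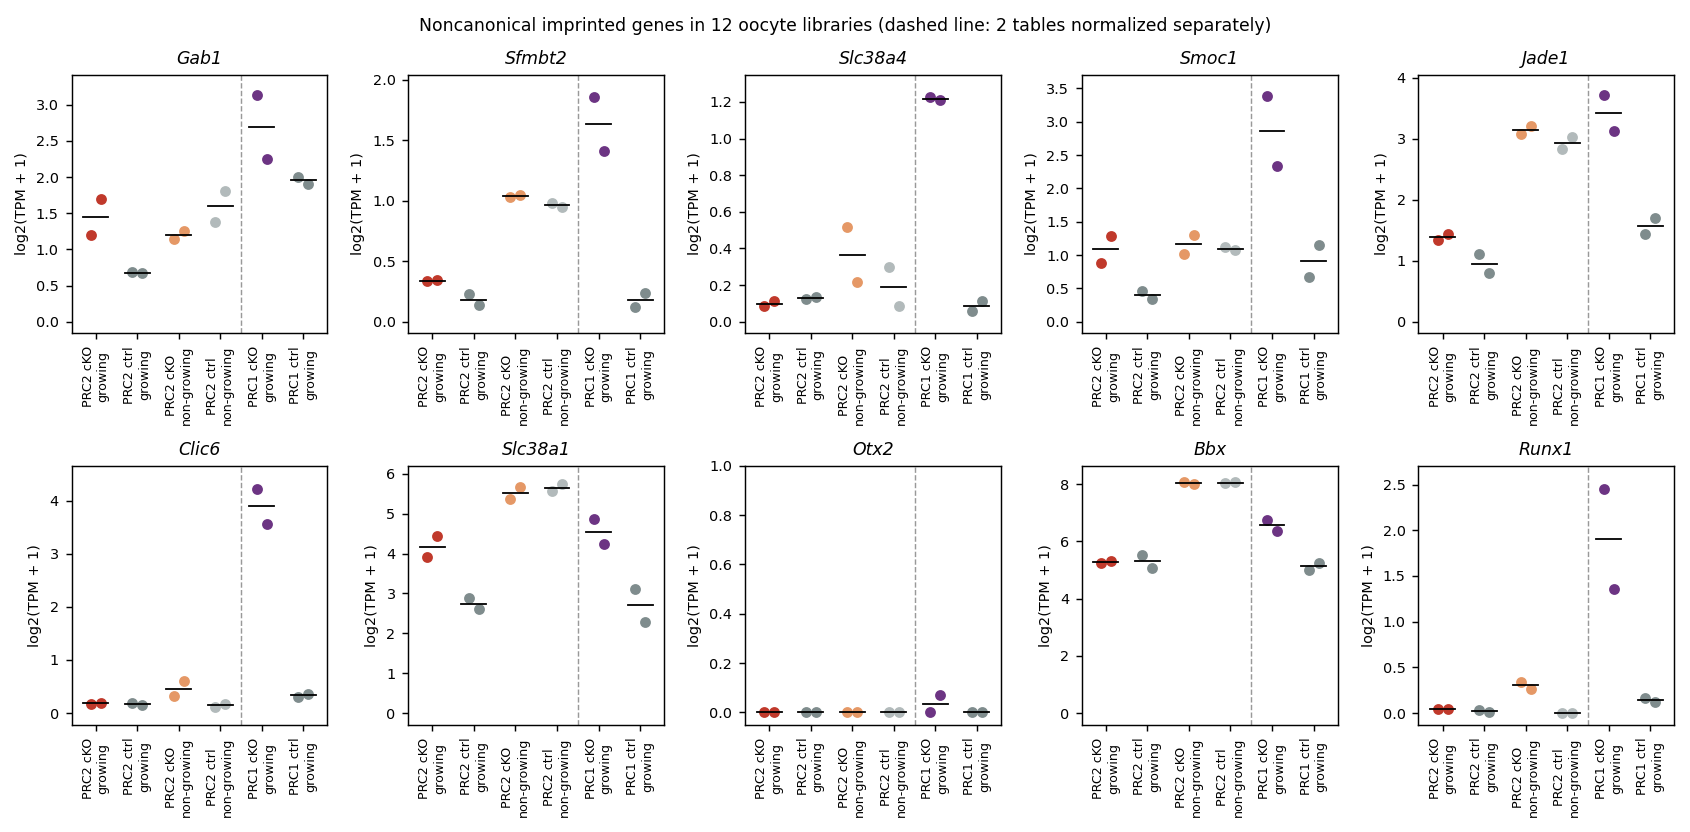
Level of each gene in the 12 libraries, as log2(TPM + 1) on the vertical axis. Each dot is 1 library, each bar the mean of 2, groups run along the horizontal axis with each cKO left of its control, the dashed line parts the PRC2 from the PRC1 table, and the vertical scales differ between panels. Both PRC1 cKO libraries stand above both PRC1 controls in every panel but Otx2, while Bbx, Slc38a1 and Jade1 are lower in growing than in non-growing PRC2 oocytes of either genotype.

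Among the membrane proteins, Clic6 was at 17.7 and 10.7 TPM in PRC1 cKO oocytes, against 0.24 and 0.28 TPM in PRC1 controls. The control level was near the floor and the cKO level was not, so the ratio of mean TPM came to 54.8, and on the fitted scale the log2 change was 3.56 (SE 0.29, limma adjusted p = 0.0024), or 3.01 above the median of all genes. Only 1.02% of the genes tested had a higher change, but Clic6 passed the filter only through the cKO. Neither this rank nor its adjusted p can therefore be read as support. Slc38a1 was at 28.1 and 17.8 TPM in PRC1 cKO oocytes, against 7.62 and 3.90 TPM in PRC1 controls. Its log2 change was 1.85 (SE 0.37, limma adjusted p = 0.014), 1.301 above the median, and with PRC1 cKO replicate 1 left out and the same genes tested the adjusted p was 0.089. Slc38a4 was at 1.34 and 1.31 TPM in PRC1 cKO oocytes and at 0.04 and 0.08 TPM in PRC1 controls, a log2 change of 1.13 (SE 0.14, limma adjusted p = 0.0042). The groups were far apart for both transporters, but Slc38a4 stayed low in absolute terms, and its change above the median was 0.58. Quantile normalization left it with a change of 0.16 and no call (limma adjusted p = 0.408).

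Of the signalling and matrix genes, Smoc1 was at 9.40 and 4.04 TPM in PRC1 cKO oocytes, against 0.60 and 1.23 TPM in PRC1 controls. The groups did not overlap, but each spread widely, and the log2 change was 1.94 (SE 0.41, limma adjusted p = 0.016), 1.39 above the median. The call was lost without PRC1 control replicate 1 when the same genes were tested (limma adjusted p = 0.079) and after quantile normalization (0.055). Gab1 was at 7.77 and 3.76 TPM in PRC1 cKO oocytes and at 3.02 and 2.76 TPM in PRC1 controls. It was the 1 tested member with no call, at a log2 change of 0.73 (SE 0.35, limma adjusted p = 0.138), or 0.18 above the median, and quantile normalization turned its sign to -0.03. Without PRC1 cKO replicate 2, the lower library, Gab1 had a change of 1.17 and was called (limma adjusted p = 0.013, or 0.037 with the same genes tested).

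Both chromatin genes were called higher, as were 41.3% of all genes tested, and Sfmbt2 passed the filter only through the cKO. Jade1 was at 12.2 and 7.71 TPM in PRC1 cKO oocytes, against 1.70 and 2.25 TPM in PRC1 controls, a log2 change of 1.85 (SE 0.29, limma adjusted p = 0.0074). Sfmbt2 was at 2.63 and 1.66 TPM in PRC1 cKO oocytes, against 0.09 and 0.18 TPM in PRC1 controls, a log2 change of 1.45 (SE 0.21, limma adjusted p = 0.0059). Above the median these came to 1.304 for Jade1 and 0.90 for Sfmbt2. Neither gene's groups overlapped, and 50.8% of all models above 0 likewise had both cKO libraries above both controls. After quantile normalization Sfmbt2 had a change of 0.51 and missed the threshold (limma adjusted p = 0.078). Gm13261, a processed transcript on the other strand that overlaps the 5′ end of Sfmbt2, was at 1.08 and 0.67 TPM in PRC1 cKO oocytes, against 0 and 0.04 TPM in PRC1 controls. It was the 1 model above 0 among 120 that overlap Sfmbt2 in that table, and whether reads were assigned by strand was not given in the sources used here. Where the models overlap, reads of the pair cannot be told apart without strand.

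Of the transcription factors, Bbx was at 107 and 81.4 TPM in PRC1 cKO oocytes, against 30.9 and 37.1 TPM in PRC1 controls. It was the most abundant of the 10 in every group, and its log2 change was 1.43 (SE 0.20, limma adjusted p = 0.0055), 0.89 above the median, with a call under each of the 3 other scalings. Runx1 was at 4.48 and 1.56 TPM in PRC1 cKO oocytes, against 0.12 and 0.09 TPM in PRC1 controls, a log2 change of 1.76 (SE 0.38, limma adjusted p = 0.017). The cKO libraries lay far apart, the higher at 2.87 times the lower against 2.33 times for Smoc1, and the Runx1 call was lost with either control left out and the same genes tested (limma adjusted p = 0.058 without replicate 1 and 0.051 without replicate 2). Otx2 was at 0 and 0.05 TPM in PRC1 cKO oocytes and was listed at 0 in both PRC1 controls. PRC1 cKO replicate 1 had the higher value of the cKO pair for all 9 genes other than Otx2.

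**Figure D2:**
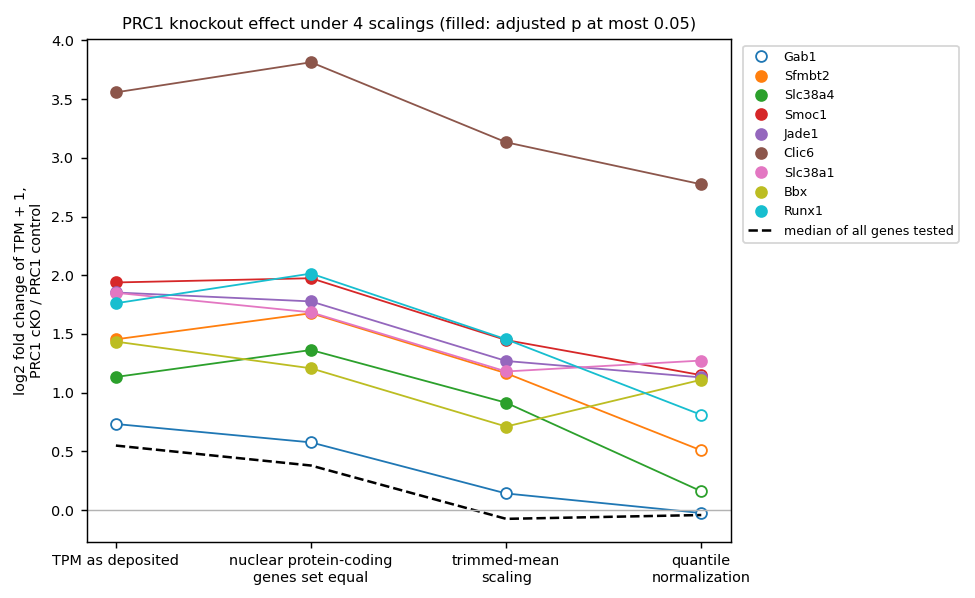
Log2 fold change of TPM + 1 of the 9 tested genes, PRC1 cKO over PRC1 control (vertical axis), under 4 scalings (horizontal axis). Lines join the values of 1 gene, filled dots have an adjusted p of at most 0.05, and the dashed line is the median of all genes tested, at 0.55 as deposited and near 0 in both rightmost columns. Bbx, Clic6, Jade1 and Slc38a1 are called under all 4, and Gab1 falls to -0.03 under quantile normalization.

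Other properties of these libraries moved with the PRC1 groups. Sohlh1, a transcription factor of early oocytes, was at 986 and 598 TPM in PRC1 cKO oocytes, against 89.97 and 157 TPM in PRC1 controls. Bmp15, a growth factor of growing oocytes, was at 22.1 and 74.2 TPM in PRC1 cKO oocytes, against 448 and 354 TPM in PRC1 controls, and Gdf9, its close relative, at 1572 and 2205 TPM, against 4864 and 5225 TPM in PRC1 controls. The PRC1 cKO libraries thus had more of an early-oocyte RNA and less of both growth-factor RNAs than their controls. Of the 10 oocyte markers, all tested, 4 were called higher (Sohlh1, Figla, Ddx4 and Dazl) and 3 lower (Bmp15, Gdf9 and Zp3). Sohlh1, Bmp15 and Gdf9 kept their calls under all 3 other scalings, Figla, Ddx4 and Zp3 under 2, and Dazl under 0. Over all genes, as deposited, 41.3% were called higher and 6.45% lower. The 10 summed to 13690 and 13008 TPM in PRC1 cKO oocytes, against 17294 and 18552 TPM in PRC1 controls. The 12 granulosa cell markers summed to 38.5 and 26.3 TPM in PRC1 cKO oocytes, against 10.15 and 13 TPM in PRC1 controls, of which Inha gave 17.2 and 10.9 TPM against 0.59 and 2.68 TPM. None of the 12 was at 0 in PRC1 cKO oocytes, against 3 and 1 in PRC1 controls, though the granulosa factor Foxl2 reached only 0.19 and 0.14 TPM in PRC1 cKO oocytes, against 0 in both PRC1 controls. Stromal and theca markers summed to 6.27 and 9.49 TPM in PRC1 cKO oocytes against 2.99 and 1.66 TPM in PRC1 controls, endothelial markers to 93.3 and 121 against 143 and 130.2 TPM, immune markers to 4.48 and 3.21 against 2.61 and 2.37 TPM, and blood markers to 1.57 and 1.89 against 0.17 and 0.66 TPM. Against the lower endothelial sum, 2 of the 4 endothelial markers tested, Cldn5 and Tek, were called higher and 0 lower. Cldn5 kept its call under all 3 other scalings and Tek under 0. More models reached 1 TPM in PRC1 cKO oocytes, 15582 and 14940, against 12313 and 12592 in PRC1 controls. The part of oocyte stage, other cells and library make-up in the changes of the 10 genes was not tested.

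In growing PRC2 cKO oocytes none of the 6 tested genes was called against controls, in a comparison that called 24 of 14153 genes, or 0.17%. By limma 1407 genes had an unadjusted p under 0.05 there, and the 24 calls were 17 higher and 7 lower, or 9 and 8 after trimmed-mean scaling. The calls numbered 9 without PRC2 cKO growing replicate 2, 10 without either non-growing control library and 13 without either non-growing cKO library. In 6 of the 10 genes (Slc38a1, Gab1, Smoc1, Jade1, Sfmbt2 and Runx1) both cKO libraries were above both controls, a state shared by 20.3% of all 26801 models above 0. One gene, Slc38a4, was lower in both, a state of 10.2% of models.

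On the log2(TPM + 1) scale the largest change was that of Slc38a1, at 14.1 and 20.6 TPM in growing PRC2 cKO oocytes against 6.35 and 5.08 TPM in growing PRC2 control oocytes. The ratio of mean TPM was 3.04, against 3.58 for Smoc1 and 2.94 for Gab1, and the log2 change 1.43 (SE 0.21, 95% interval from 0.93), with 0.664% of genes tested having a higher change. Its limma adjusted p of 0.101 missed the threshold, as did every alternative, between 0.052 and 0.599. Smoc1 was at 0.85 and 1.44 TPM in growing PRC2 cKO oocytes, against 0.38 and 0.26 TPM in PRC2 controls (log2 change 0.69, SE 0.20, limma adjusted p = 0.379). Gab1 was at 1.3 and 2.23 TPM in growing PRC2 cKO oocytes, against 0.61 and 0.59 TPM in PRC2 controls (log2 change 0.77, SE 0.23, limma adjusted p = 0.387). These 3 genes had non-overlapping groups with low or moderate levels and unadjusted p-values that did not survive adjustment over all genes.

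The other genes differed less. Jade1 was at 1.54 and 1.70 TPM in growing PRC2 cKO oocytes, against 1.16 and 0.74 TPM in PRC2 controls (log2 change 0.43, limma adjusted p = 0.502). Sfmbt2 was at 0.26 and 0.27 TPM in growing PRC2 cKO oocytes, against 0.17 and 0.10 TPM in PRC2 controls (log2 change 0.16, limma adjusted p = 0.685). Bbx was at 37.1 and 38.5 TPM in growing PRC2 cKO oocytes, within the 45.4 and 32.9 TPM of PRC2 controls, and its log2 change of -0.03 had a 95% interval down to -0.38. Clic6 was at 0.13 and 0.14 TPM in growing PRC2 cKO oocytes against 0.14 and 0.11 TPM in PRC2 controls, and Runx1 at 0.03 in both cKO libraries against 0.02 and 0.01 TPM in PRC2 controls. Slc38a4 was at 0.06 and 0.08 TPM in growing PRC2 cKO oocytes against 0.09 and 0.10 TPM in PRC2 controls, and Otx2 was listed at 0 in all 8 PRC2 libraries. These last 4 genes stayed below the filter, so that their small differences were not tested. Sohlh1 was at 96.3 and 126 TPM in growing PRC2 cKO oocytes, against 65.3 and 35.0 TPM in PRC2 controls. Other oocyte markers overlapped between these groups, with Gdf9 at 3329 and 4284 against 3706 and 4019 TPM and Bmp15 at 308 and 430 against 362 and 460 TPM. The oocyte markers summed to 13344 and 17070 against 15856 and 15799 TPM, and the granulosa markers to 10.6 and 12.9 against 9.68 and 10.4 TPM. The part of these markers in the differences of Slc38a1, Smoc1 and Gab1 was not tested.

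**Figure D3:**
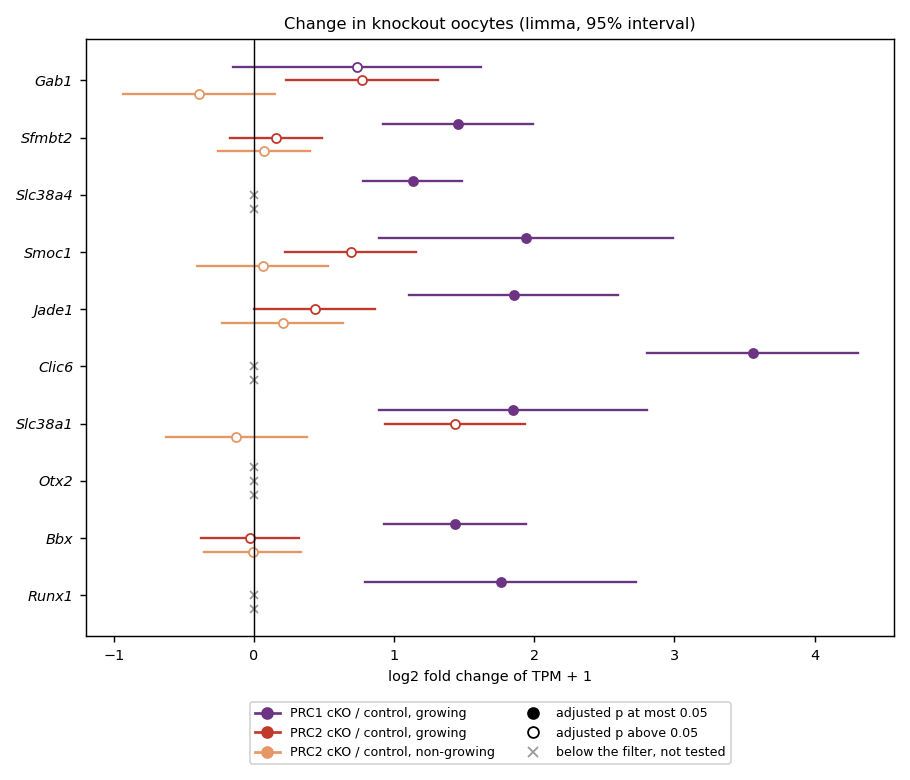
Log2 fold change of TPM + 1 in cKO over control oocytes (horizontal axis) for each gene (vertical axis), with 95% intervals from limma. Filled dots have an adjusted p of at most 0.05, open dots do not, and crosses mark genes below the filter. The 8 filled dots are all of the PRC1 comparison, and among the PRC2 comparisons the highest value is that of Slc38a1 in growing oocytes, at 1.43 with no call.

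In non-growing PRC2 cKO oocytes again none of the 6 was called, among 44 calls in 14153 genes (0.311%, 16 higher and 28 lower), with 2316 genes at an unadjusted limma p under 0.05. With replicate 2 of the non-growing PRC2 cKO left out there were 24 calls, with a growing control library (either) left out 27, and with replicate 1 or 2 of the non-growing PRC2 controls left out 13 or 6. Slc38a1 was at 40.4 and 50.1 TPM in non-growing PRC2 cKO oocytes, against 46.3 and 52.3 TPM in PRC2 controls, and Bbx at 269 and 259.9 TPM, against 263 and 269.7 TPM in PRC2 controls. Both pairs of groups overlapped, and the log2 changes were -0.13 for Slc38a1 and -0.01 for Bbx, the second of which turned above 0 under 3 scalings. Gab1 was at 1.21 and 1.38 TPM in non-growing PRC2 cKO oocytes, below the 1.61 and 2.49 TPM of PRC2 controls, a log2 change of -0.40 (SE 0.23, limma adjusted p = 0.413). It was the 1 gene of the 10 lower in both cKO libraries, a state shared by 25.6% of 27619 models.

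In all, 4 genes were higher in both PRC2 cKO non-growing libraries, where 16.5% of models were. Jade1 was at 7.42 and 8.25 TPM in non-growing PRC2 cKO oocytes, against 6.16 and 7.19 TPM in PRC2 controls (log2 change 0.20, limma adjusted p = 0.587), and Sfmbt2 at 1.04 and 1.07 TPM against 0.98 and 0.93 TPM (0.07, adjusted p = 0.816). Clic6 was at 0.25 and 0.51 TPM in non-growing PRC2 cKO oocytes against 0.08 and 0.13 TPM in PRC2 controls. Runx1 was at 0.27 and 0.20 TPM in non-growing PRC2 cKO oocytes and was listed at 0 in both PRC2 controls. Runx1 and Clic6, the neighbours on chromosome 16, thus each had a little RNA in the cKO at levels the filter leaves out. With no filter, Runx1 had a limma adjusted p of 0.051 and Clic6 one of 0.299. Smoc1 was at 1.02 and 1.47 TPM in non-growing PRC2 cKO oocytes against 1.18 and 1.10 TPM in PRC2 controls, and Slc38a4 at 0.43 and 0.16 against 0.23 and 0.06 TPM, with overlap in both. Stromal and theca markers summed to 6.28 and 5.44 TPM in non-growing PRC2 cKO oocytes, against 3.85 and 3.24 TPM in PRC2 controls, and oocyte markers to 5533 and 6153 TPM, against 7417 and 7770 TPM in PRC2 controls. Granulosa markers summed to 4.91 and 3.49 TPM in non-growing PRC2 cKO oocytes, against 3.65 and 4.07 TPM in PRC2 controls. Their part in the values of Runx1 and Clic6 was not tested.

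Whether the PRC2 cKO effect differed between stages was tested as an interaction, growing minus non-growing, which called 14 of 14153 genes (0.0989%) and none of the 6, while 2230 genes had an unadjusted limma p under 0.05. Slc38a1 had the largest interaction of the 6, at 1.56 (SE 0.30, limma adjusted p = 0.257), followed by Gab1 at 1.16 (SE 0.32, limma adjusted p = 0.305) and Smoc1 at 0.63 (SE 0.28, limma adjusted p = 0.329). Without PRC2 cKO growing replicate 1 the interaction of Slc38a1 was 1.82 with an adjusted p of 0.038, in a fit that called 855 genes higher and 67 lower in place of 13 and 1. Averaged over both stages, no tested gene of the 10 was called either, where 0.509% of genes were, and Slc38a1 was again nearest, at 0.65 (SE 0.15, limma adjusted p = 0.143), with 1743 genes at an unadjusted p under 0.05. The calls over all genes in that mean, 72, fell to 16 without PRC2 control non-growing replicate 2 and to 18 without replicate 1 of that group.

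Levels also differed between growing and non-growing oocytes, which were taken on postnatal days 7 and 6, so that stage and age cannot be told apart. In PRC2 cKO oocytes 4 of the 6 tested genes were called lower in growing than in non-growing oocytes, where 46.0% of all genes tested were called lower and 20.1% higher and the median log2 change was -0.45. In PRC2 control oocytes all 6 were called lower, where 54.0% of all genes were called lower and 16.6% higher and the median was -0.67. These counts include Sfmbt2, which passed the filter only through non-growing cKO libraries, and cannot be read as support. The shares of all genes are large, and in controls 3 of the 6 members changed about as much as the median gene. The calls over all genes in cKO oocytes, 2844 higher and 6516 lower, became 4088 and 4596 after trimmed-mean scaling, and those in controls, 2346 and 7640, became 3925 and 4279, so the changes are also given relative to the medians. Other properties moved with the stages. Endothelial markers summed to 150.03 to 166 TPM in the 4 growing PRC2 libraries, against 22.7 to 28.2 TPM in the 4 non-growing ones. Of these markers, Cdh5 and Emcn were at 0 in both growing controls, and none was at 0 in either growing cKO library. Pecam1 was at 4.15 to 9.58 TPM in growing and 3.30 to 9.11 TPM in non-growing PRC2 libraries. Granulosa markers summed to 9.68 to 12.9 TPM in growing, against 3.49 to 4.91 TPM in non-growing libraries, and oocyte markers to 13344 to 17070 TPM, against 5533 to 7770 TPM in non-growing libraries. Nuclear protein-coding genes held 58.5% to 61.9% of the TPM in growing libraries, against 83.9% to 86.4% in non-growing libraries, and models of the annotation class TEC held 23.3% to 25.9%, against 2.26% to 2.57%. The part of these properties in the changes of the members was not tested.

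Bbx, Slc38a1 and Jade1 fell well past the median gene. Bbx fell by 2.77 on the log2 scale in PRC2 cKO oocytes (SE 0.15, limma adjusted p = 1.2e-05) and fell by 2.75 in PRC2 controls (SE 0.15, limma adjusted p = 1.31e-05), that is -2.32 and -2.08 relative to the medians. Its level in growing oocytes, 37.1 to 38.5 TPM in cKO and 32.9 to 45.4 TPM in controls, lay far below the 259.9 to 269.7 TPM of the 4 non-growing libraries. Jade1 fell by 1.75 in PRC2 cKO oocytes (SE 0.18, limma adjusted p = 0.000167) and fell by 1.98 in PRC2 controls (SE 0.18, limma adjusted p = 9.46e-05). Slc38a1 fell by 1.35 in PRC2 cKO oocytes (SE 0.21, limma adjusted p = 0.0012) and fell by 2.91 in PRC2 controls (SE 0.21, limma adjusted p = 3.72e-05). Relative to the medians Jade1 stood at -1.30 in PRC2 cKO and -1.31 in PRC2 control oocytes, and Slc38a1 at -0.89 and -2.24. The intervals of Slc38a1 in the genotypes did not overlap, yet the test of that difference is the interaction given above, which missed the threshold with all libraries and passed it without PRC2 cKO growing replicate 1 (limma adjusted p = 0.038).

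Sfmbt2, Gab1 and Smoc1 had smaller log2 changes. Sfmbt2 fell by 0.70 in PRC2 cKO oocytes (limma adjusted p = 0.0036) and fell by 0.79 in PRC2 controls (limma adjusted p = 0.0019), which is -0.25 and -0.11 relative to the medians. It reached 1 TPM in non-growing PRC2 cKO libraries alone, and so passed the filter only through a group where it is high. Gab1 had a log2 change of 0.25 in PRC2 cKO oocytes (SE 0.23, limma adjusted p = 0.365) and fell by 0.92 in PRC2 controls (SE 0.23, limma adjusted p = 0.0096), which is 0.70 and -0.24 relative to the medians. Smoc1 had one of -0.07 in PRC2 cKO oocytes (SE 0.20, limma adjusted p = 0.763), which turned above 0 under trimmed-mean scaling (0.18) and scaling to protein-coding genes (0.22), and fell by 0.70 in PRC2 controls (SE 0.20, limma adjusted p = 0.016). Relative to the medians Smoc1 stood at 0.38 in PRC2 cKO and -0.03 in PRC2 control oocytes. The control calls of Gab1 and Smoc1 were lost after trimmed-mean scaling (adjusted p = 0.053 and 0.080), while their direction was kept. They were also lost without PRC2 control non-growing replicate 2 (adjusted p = 0.064 for Gab1 and 0.057 for Smoc1), and that of Smoc1 also without PRC2 control non-growing replicate 1 (0.070) or PRC2 control growing replicate 2 (0.075).

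**Figure D4:**
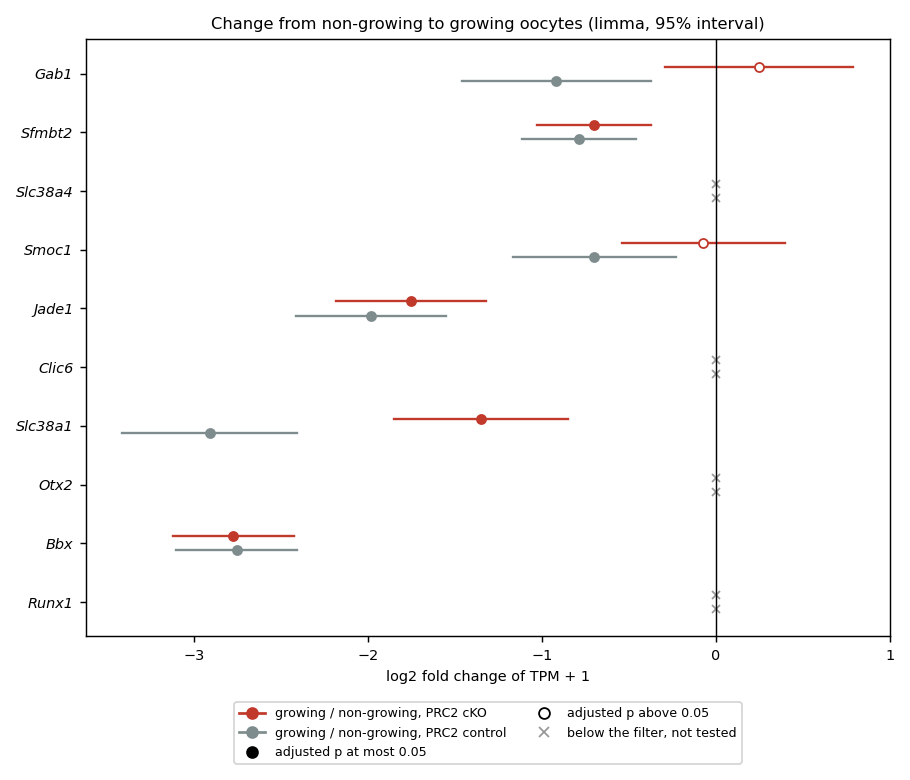
Log2 fold change of TPM + 1 in growing over non-growing oocytes (horizontal axis) for each gene (vertical axis), in PRC2 cKO and PRC2 control oocytes, with 95% intervals from limma and crosses for genes below the filter. Bbx and Jade1 have close values in the genotypes, Slc38a1 falls by 1.35 in cKO and 2.91 in control oocytes, and Gab1 and Smoc1 are called in controls and not in cKO, where the sign of Smoc1 turns above 0 under trimmed-mean and protein-coding scaling.

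Since TPM is a level per transcript length, the genes can be ranked within a group. Bbx stood first in all 6 groups and Slc38a1 next, with no overlap between their libraries in any group. In non-growing oocytes Bbx averaged 264 ± 6.42 TPM in PRC2 cKO and 266 ± 4.61 TPM in PRC2 controls (SD, n = 2 each), with 3.22% and 3.27% of protein-coding genes above it. Slc38a1 averaged 45.2 ± 6.90 TPM in PRC2 cKO and 49.3 ± 4.21 TPM in PRC2 controls at that stage (SD, n = 2 each), with 13.3% above it in each. Jade1 ranked next in non-growing oocytes of both genotypes, at 7.83 ± 0.587 TPM in cKO and 6.67 ± 0.728 TPM in controls (SD, n = 2 each), and Gab1, Smoc1 and Sfmbt2 followed near 1 to 2 TPM. In PRC1 cKO oocytes Clic6 ranked behind Slc38a1 at 14.2 ± 4.95 TPM and Jade1 next at 9.93 ± 3.14 TPM (SD, n = 2 each). The libraries of the genes from Clic6 down to Sfmbt2 overlapped from each neighbour to the next there, so their order is not fixed by these data.

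The genes whose pattern over the 8 PRC2 libraries was most like a member's were found by Pearson's r of log2(TPM + 1), as a description over 8 libraries that share the 4 groups. They were Babam2 for Bbx and Boll for Jade1 (r = 1.00 each), Apoc1 for Sfmbt2 (1.00), Pycr1 for Slc38a1 (0.99), and Supv3l1 for Gab1 and Nes for Smoc1 (0.98 each). Pycr1, an enzyme of proline synthesis, was at 7.47 and 8.38 TPM in growing PRC2 cKO oocytes, 6.10 and 5.68 TPM in growing PRC2 control oocytes, 10.9 and 11.4 TPM in non-growing PRC2 cKO oocytes and 11.9 and 13.02 TPM in non-growing PRC2 control oocytes. It followed Slc38a1 in order of groups with a narrower range.

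Genes beside the members on the chromosome also differed in PRC1 cKO oocytes. The nearest protein-coding gene on each side gave 19 distinct genes, of which 2 (Clic6 and Runx1) are members themselves. Of the 15 tested, 8 were called higher and 1 lower, against 41.3% and 6.45% of all genes. Of those 8, Amigo2, Clic6, Prkcq, Runx1 and Slc38a2 passed the filter only through the cKO, so the count is no support. After quantile normalization 4 were called higher and 1 lower, where 2722 of all 14941 genes were called higher and 2636 lower. Slc38a2, the amino acid transporter gene that lies between Slc38a1 and Slc38a4, was at 5.80 and 3.80 TPM in PRC1 cKO oocytes, against 0.13 and 0.34 TPM in PRC1 controls (log2 change 2.22, SE 0.25, limma adjusted p = 0.0035). All 3 of the adjacent transporter genes were thus called higher, but Slc38a2 and Slc38a4 passed the filter only through the cKO. That all 3 were called can therefore not be read as support, and Slc38a4 lost its call after quantile normalization. Cd47, beside Bbx, was at 55.6 and 49.0 TPM in PRC1 cKO oocytes, against 2.57 and 4.68 TPM in PRC1 controls (log2 change 3.56, limma adjusted p = 0.0023). Prkcq, beside Sfmbt2 but 576855 bases away, was at 15.6 and 14.5 TPM in PRC1 cKO oocytes, against 0.40 and 0.42 TPM in PRC1 controls (log2 change 3.51, limma adjusted p = 0.0021). Cd47 and Prkcq had larger log2 changes than the members they neighbour, and Tmem260, beside Otx2, was the 1 called lower (log2 change -0.80, limma adjusted p = 0.022). The neighbours were named after their values were seen.

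Lists of related genes gave further context in PRC1 cKO oocytes. Of 13 other candidates for noncanonical imprinting, 11 were tested and 7 were called higher and none lower, with a median log2 change of 1.33 against 0.55 for all genes and a share of 41.3% of all genes called higher. Enc1, Etv6, Mbnl2 and Tle3 were below 1 TPM in both PRC1 controls and passed the filter only through the cKO, so neither the count nor the median is support. With quantile normalization 4 were called higher, where 2722 of all 14941 genes were. Sh3gl3, which encodes an endophilin, was at 35.0 and 31.6 TPM in PRC1 cKO oocytes, against 9.11 and 7.82 TPM in PRC1 controls (log2 change 1.86, limma adjusted p = 0.003). Mbnl2, a splicing regulator, was at 3.42 and 3.14 TPM in PRC1 cKO oocytes, against 0.14 and 0.41 TPM in PRC1 controls (1.75, adjusted p = 0.0035), and Enc1 at 2.63 and 2.58 against 0.25 and 0.26 TPM (1.52, adjusted p = 0.0032). These genes had no overlap between groups, as Gm32885 had none, at 23.2 and 24.02 TPM in PRC1 cKO oocytes against 6.52 and 5.60 TPM in PRC1 controls (1.81, limma adjusted p = 0.0034). In the PRC2 comparisons no gene of this list was called at either stage, of 9 tested, where 0.17% of all genes were called in growing and 0.311% in non-growing oocytes. The list's median log2 change was 0.41 in growing and 0.07 in non-growing oocytes, against 0.08 and -0.09 for all genes. Gm32885 was at 8.58 and 12.6 against 6.77 and 5.47 TPM in growing, and at 28.9 and 21.4 against 7.88 and 8.74 TPM in non-growing PRC2 cKO and control oocytes.

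Of 24 canonical imprinted genes, whose imprint rests on DNA methylation, 17 were tested in the PRC1 table. Of these, 8 (47.1%) were called higher, near the 41.3% of all genes, and 1 lower. Their median log2 change was 0.80, against 0.55 for all genes. After quantile normalization 3 were called higher and 2 lower, where 2722 of all 14941 genes were called higher and 2636 lower. Dlk1, a growth regulator, was at 188 and 125 TPM in PRC1 cKO oocytes, against 2.12 and 3.36 TPM in PRC1 controls, a log2 change of 5.39 (limma adjusted p = 0.0021). Ndn was at 9.17 and 5.65 TPM in PRC1 cKO oocytes against 0.44 and 0.59 TPM in PRC1 controls (2.44, adjusted p = 0.0036), Igf2 at 5.05 and 2.72 against 0.14 and 0.20 TPM (2.02, adjusted p = 0.0053), and Nnat at 1.71 and 1.52 against 0.28 and 0.19 TPM (1.08, adjusted p = 0.0057). Igf2, Meg3, Nap1l5, Ndn and Nnat were below 1 TPM in both PRC1 controls and passed the filter only through the cKO. Quantile normalization left Nnat with a change of 0.11 and no call. None of the 15 tested in the PRC2 table was called in PRC2 cKO oocytes of either stage, where 0.17% of all genes were called in growing and 0.311% in non-growing oocytes.

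Paralogs of the members, 18 in all, gave 5 higher (41.7%, against 41.3% of all genes) and 2 lower calls of 12 tested in PRC1 cKO oocytes. After quantile normalization 1 was called higher and 3 lower, where 2722 of all 14941 genes were called higher and 2636 lower. The closest relative of Sfmbt2 moved the other way: Sfmbt1 was at 21.5 and 24.1 TPM in PRC1 cKO oocytes, against 67.4 and 61.2 TPM in PRC1 controls, a log2 change of -1.46 (SE 0.16, limma adjusted p = 0.0033), called lower under all 3 scalings. Beside Slc38a2, Clic3 was called higher at 1.46 and 2.25 TPM in PRC1 cKO oocytes against 0.16 and 0.17 TPM in PRC1 controls (1.28, limma adjusted p = 0.0067), and Gab3 at 44.9 and 38.6 against 24 and 24.3 TPM (0.76, limma adjusted p = 0.017), and each lost its call under at least 1 scaling, with changes down to 0.34 for Clic3 and 0.05 for Gab3. Clic3 and Slc38a2 passed the filter only through the cKO. No paralog of 11 tested was called in PRC2 cKO oocytes, where 0.17% of all genes were called in growing and 0.311% in non-growing oocytes.

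Of 29 writers, readers and erasers of the Polycomb marks, 27 were tested in the PRC1 table. Of these, 7 (25.9%) were called higher and 7 lower, against 41.3% and 6.45% of all genes. Their median log2 change was -0.21, against 0.55 for all genes. After trimmed-mean scaling 2 were called higher and 15 lower, where 3169 of all 14941 genes were called higher and 3482 lower. AU022751, the mouse Ezhip gene, which inhibits PRC2, was at 105 and 101 TPM in PRC1 cKO oocytes, against 351 and 407 TPM in PRC1 controls (log2 change -1.86, limma adjusted p = 0.0022). Among the PCGF subunits of PRC1, Pcgf1 was at 107 and 186 TPM in PRC1 cKO oocytes against 415 and 414 TPM in PRC1 controls (-1.55, adjusted p = 0.010). Pcgf2 was at 6.42 and 4.61 TPM in PRC1 cKO oocytes against 0.62 and 0.85 TPM in PRC1 controls (1.90, adjusted p = 0.0044) and Pcgf5 at 18.4 and 15.2 against 3.43 and 5.05 TPM (1.77, adjusted p = 0.006). These 4 kept their calls and directions under all 3 scalings. Pcgf2 and Phf19 were below 1 TPM in both PRC1 controls and passed the filter only through the cKO, so their calls cannot be read as support. In the PRC2 comparisons Eed was the 1 gene of the list called, with log2 changes of -2.52 in growing and -2.90 in non-growing oocytes (limma adjusted p = 0.0014 and 0.000252).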

How the data were processed

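RNA-seq was measured in 12 mouse oocyte libraries, 2 per group, grouped by their titles. The authors deposited TPM values per gene model in 2 tables, of 8 PRC2 and 4 PRC1 libraries, treated here as normalized separately. The submitters' processing notes name GRCm38 (mm10) as the build and, with no role or order, RSEM 1.3.3, Subread 2.0.3, HISAT2, SAMtools and Trim Galore 0.6.10. Which of them gave the TPM, the use of strand and the handling of multimapping reads were not given in the sources used here. TPM holds no depth, so no count test or counting interval applies.

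Genes with at least 1 TPM in 2 libraries of a table were fitted as log2(TPM + 1) with limma 3.58.1 in R 4.3.3 (eBayes with trend, all groups of a table, two-sided), with Benjamini-Hochberg adjustment over all genes tested and a threshold of 0.05. The fit was tested on simulated data. Coordinates came from GENCODE vM21, identical to the tables' models for all 10 genes. The members and lists were chosen with earlier results of these data known. Named genes were all 10 members, Eed, Rnf2 and Ring1, up to 4 called genes of a list with the smallest p in a cKO comparison, and the gene most like each tested member over the PRC2 libraries. Replicate numbers were taken from the titles. Alternatives varied the pseudocount, filter, scaling, trend, groups in the fit, replicate block and libraries.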

Additional observations from a re-analysis of the deposited data

Results flagged for a closer look

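The PRC2 cKO effect on Gab1 ran opposite ways at the 2 stages in every library. Gab1 was above the controls in both PRC2 cKO growing libraries and below them in both PRC2 cKO non-growing libraries. The interaction was 1.16 on the log2 scale (SE 0.32), with a limma adjusted p of 0.305, so the difference did not pass the test.

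The growth effect on Runx1 ran opposite ways in the PRC2 genotypes in every library. Runx1 was at 0.03 TPM in both PRC2 cKO growing libraries, below the 0.27 and 0.20 TPM of PRC2 cKO non-growing libraries, while PRC2 control growing libraries, at 0.02 and 0.01 TPM, were above PRC2 control non-growing libraries, where it was listed at 0. The interaction was -0.28 in the fit with no filter (limma adjusted p = 0.223), which does not pass, and all values lie far below the filter of 1 TPM.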

How the results depend on the processing

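Of the changes of single genes, 388 kept their direction and side of the threshold with no library left out, 9 lost their call and 9 changed sign, and with 1 library left out 590 kept both, 12 lost and 4 gained a call and 22 changed sign. Calls lost but not given above were those in PRC1 cKO of Smoc1 (limma adjusted p = 0.064), Runx1 (0.070) and Slc38a1 (0.053) with no filter, where more genes are tested, and of Runx1 with quantile normalization (0.125). Sign changes were of genes with no call. With quantile normalization Gab1 in PRC1 cKO came to -0.025, the PRC2 interaction to -0.080 for Jade1 and -0.11 for Sfmbt2, and Bbx in non-growing PRC2 cKO to 0.0039. Bbx there came to 0.087 with trimmed-mean scaling and 0.010 with scaling to nuclear protein-coding genes, which also gave 0.0015 for its mean over both stages. Smoc1 with growth in PRC2 cKO came to 0.18 and 0.22 under these scalings. The cause was not tested.

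PRC1 members called, 8 of 9, became 4 with quantile normalization, 5 of 10 with no filter, and 4 of 4 at 5 TPM in 2 libraries, where the stricter filter left 4 to test. Of those 4, Clic6, Jade1 and Slc38a1 reached 5 TPM in fewer than 2 control libraries. They passed only through the cKO, so 4 of 4 cannot be read as support. Over all genes 6176 of 14941 were called higher as deposited and 2722 of 14941 with quantile normalization. With no filter 5754 of 32244 were called higher, and at 5 TPM 3991 of 10079. For growth in PRC2 controls that filter left 3 members, all called, where 5979 of 9687 genes were called lower. Jade1 reached 5 TPM only in non-growing libraries, so that count cannot be read as support either. The calls over all genes in non-growing PRC2 cKO oocytes, 44, became 87 with a pseudocount of 5, 91 with no filter, 27 with trimmed-mean scaling and 10 with only the groups compared. In growing PRC2 cKO oocytes 24 calls became 50 with no filter, 12 without the trend and 1 with only the groups compared. The mean over stages, with 72 calls, gave 47 after quantile normalization and also 47 after trimmed-mean scaling. The interaction, with 14, gave 7 at a pseudocount of 5 and 9 at 5 TPM. No member was called in a PRC2 cKO comparison under any of these.

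No label says that the replicate numbers pair the libraries, and 2 libraries a group cannot settle it. The correlations of same-numbered deviations were 0.06 and -0.03 between PRC2 cKO and control in non-growing and growing oocytes, 0.26 and 0.02 between the stages in PRC2 cKO and control, and -0.27 in the PRC1 table. With a replicate block the members' calls numbered 8 in PRC1 cKO, 4 and 6 for growth in PRC2 cKO and control, and 0 for the PRC2 cKO effects, while all calls in non-growing PRC2 cKO oocytes became 20 and those of the interaction 5. Over all genes that block gave 5094 calls of 14941 in PRC1 cKO, and 9543 and 10171 of 14153 for growth in PRC2 cKO and control. With crossed numbers, a pairing chosen after seeing the data, the PRC1 table gave 9501 calls in place of 7140, and 8 members.

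Leaving out 1 library, also with the tested genes kept as they were (a form chosen after seeing the data), gave 6 to 48 calls in non-growing and 9 to 35 in growing PRC2 cKO oocytes, 16 to 60 for the mean, 2 to 922 for the interaction (922 without PRC2 cKO growing replicate 1, at most 13 without any other) and 2953 to 6390 in PRC1 cKO. Where an arm keeps 1 library, that library is assumed to vary like the other groups. The members called ranged from 4 to 9 in PRC1 cKO, where 5 could be tested once either cKO library was left out, and from 0 to 1 for the interaction. In non-growing PRC2 cKO oocytes Smoc1 ranged from -0.083 to 0.21, Bbx from -0.036 to 0.014 and Slc38a1 from -0.28 to 0.026. Bbx ranged from -0.26 to 0.20 in growing PRC2 cKO oocytes, from -0.13 to 0.093 in the mean and from -0.25 to 0.21 in the interaction, and Smoc1 with growth in PRC2 cKO from -0.27 to 0.13. With 2 libraries a group and TPM alone, changes of genes near 0, such as Slc38a4, Runx1 and Otx2, rest on values whose counting error is unknown.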
